A study of Homo sapiens with 6 samples.

Results

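Transcripts of nuclear pore proteins and nuclear transport receptors were compared between growing WI-38 cells and WI-38 cells made senescent by RASv12. The genes were taken by name from a list of 34, made up of 20 pore proteins and 14 genes of the Ran cycle and of the transport receptors. Each was represented by its probe set with the highest mean intensity over the 6 arrays. All 34 had a named probe set, among 11963 genes that had one. WI-38 is a strain of normal diploid fibroblasts from human embryonic lung, and RASv12 is a constitutively active RAS GTPase. The control group, labelled wild type and growing, held 3 arrays, and the RASv12 group, labelled as overexpressing RASv12 and senescent, held 3 arrays. Both groups were cultured at 3% oxygen. The labels' protocol describes retroviral transfer of genes but not the RAS gene, the promoter or vector, or whether control cells received an empty vector. Infection and RASv12 therefore cannot be told apart. Whether replicates were grown as separate cultures is not stated, and their spread, against which all tests here are made, may be technical.

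Nuclear pore complexes are the channels through which protein and RNA pass between nucleus and cytoplasm. The Y complex and the inner ring form their scaffold, FG nucleoporins fill the channel, and filaments and a basket extend to the cytoplasm and into the nucleus. Importin alpha proteins read a nuclear localization signal and bind importin beta, while exportins carry cargo out. The small GTPase RAN, charged with GTP in the nucleus, releases import cargo and loads export cargo. New pores are built while a cycling cell grows and again when the nuclear envelope reforms after mitosis. Pore and transport proteins are also studied in senescent cells, where the nuclear entry of growth signals is a question of interest.

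The deposited value is a linear intensity per probe set, and its trimmed mean was the same on every array, so all had been scaled to a common brightness. Changes are therefore relative to the other transcripts of the same cells, and in bulk RNA fewer cells with a transcript and less of it per cell cannot be told apart. Array medians ran from 26.1 to 33.5. Arrays of the same group correlated at 0.974 to 0.987, and arrays of different groups at 0.911 to 0.928. The labels name Cy5 for control and Cy3 for RASv12 samples, although the probe set names are those of a single-colour array. If dyes differed, dye and group cannot be told apart. Intensity of HRAS, the RAS gene of many senescence models, was 215 ± 23.0 (SD, n = 3) in control and 853 ± 123 (n = 3) in RASv12 cells, and whether its probe set reads the introduced gene was not tested. Of 12 fibroblast markers, 9 fell, while VIM, FN1 and COL6A3 did not pass. The summed intensity of this list ran from 25916 to 28472 in control and from 13337 to 15878 in RASv12 cells. All 10 proliferation markers fell, 5 of them to RASv12 means within the low bacterial controls (27 probe sets for bacterial RNA, at 27.98 at most, taken as background). Their summed intensity was 3463 to 3967 in control and 538 to 548 in RASv12 cells. Summed intensities of 6 epithelial markers lay at 192 to 200 in control and 161 to 220.0 in RASv12 cells, of 5 endothelial markers at 102 to 128 and 47.2 to 99.8, and of 4 leukocyte markers at 30.9 to 54.8 and 28.6 to 65.4. Of these, KRT8, KRT19 and TEK fell and the rest did not pass. No marker was at 0, and EPCAM, CDH1, CDH5, VWF, KDR, PTPRC, CD14 and CD3D lay within the low bacterial controls on all 6 arrays. The epithelial marker KRT18 lay above them, at 83.8 to 95.2 in control and 105 to 132 in RASv12 cells. Its groups did not overlap, and it did not pass (limma adjusted p = 0.051). The part of these marker changes in the results below was not tested.

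Of the 34 genes, 10 fell, 4 rose and 20 did not pass. A gene was called at an adjusted p under 0.05 in limma, with Benjamini-Hochberg adjustment over all 11963 genes. The falls were NUP107, NUP133, NUP85, NUP43, NUP62, NUP153, NUP50, KPNA2, XPO1 and CSE1L, and the rises were KPNA4, IPO5, NUP58 and NUP188. The 10 falls are 29.4% of the genes, against 15.3% of all genes called lower, and the 4 rises are 11.8%, against 13.8% called higher. Calls in either direction came to 41.2%, against 29.1% of all genes. Most of the 34 are bright on these arrays. Among the 8357 genes above the low bacterial controls on at least 1 array, 39.1% were called, 20.7% lower and 18.4% higher, so the share called in either direction lay near this background. The median log2 change of the 34 was -0.23, with a range from -0.95 to 1.05, and that of all genes was 0.020. A change of at least 1 on the log2 scale was seen for 1 of the 34 (2.94%) and for 8.66% of all genes. Log2 changes here were taken after adding 16 to each intensity, which makes them smaller than ratios of deposited values. The ratio of deposited means, RASv12 over control, was 2.12 for KPNA4, 0.487 for NUP62 and 0.489 for NUP133. For 22 of the 34 every RASv12 value lay on one side of every control value (64.7%), against 41.7% of all genes and 53.0% of those above the low controls.

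The number of falls depended on how arrays were put on 1 scale. Control probe sets for the hybridization step, which read RNA added at a fixed amount, were lower on RASv12 arrays by a mean log2 difference of -0.34. With arrays scaled to them, the median over all genes was 0.197 and that of the 34 was 0.06, so relative to all genes the 34 lay at -0.14 there and at -0.25 as reported. Under that scaling 3 of the 34 fell and 8 rose. The 3 falls were NUP107, NUP133 and KPNA2, and the rises were the 4 named above with NUP98, RANBP2, RAN and IPO7. Rises made up 72.7% of the calls among the 34 there and 28.6% as reported, and 72.9% and 47.3% of all calls. Without control replicate 1 there were 5 falls, without control replicate 2 there were 6, and without RASv12 replicate 1 there were 13. In the RASv12 group, replicate 3 held the lowest intensity for 19 of the 34 genes and replicate 1 the highest for 21.

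**Figure D1:**
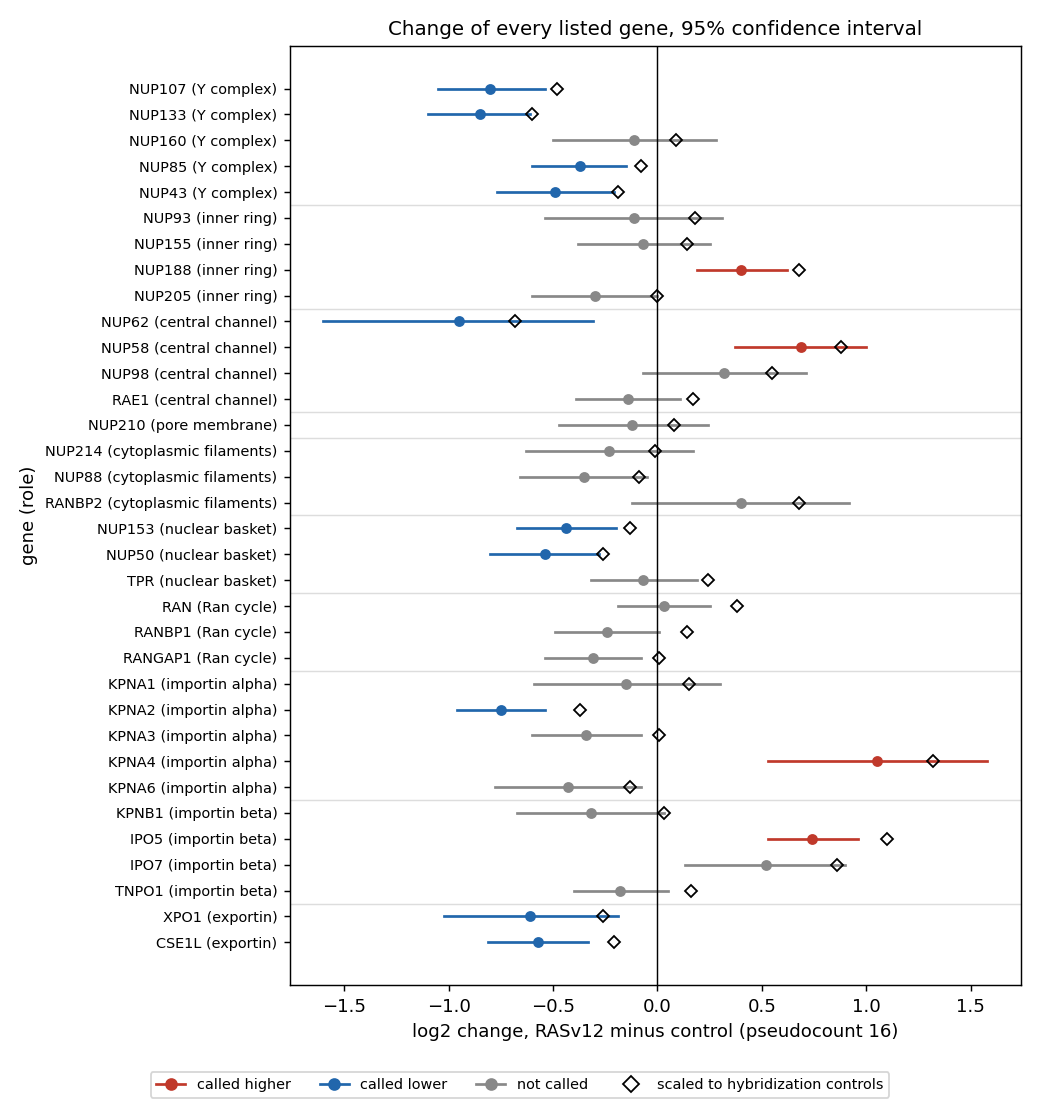
Log2 change of each of the 34 genes, grouped by role, with filled points for the reported fit, bars for its 95% confidence interval (n = 3 per group) and open diamonds for the value with arrays scaled to the hybridization controls. Of the 10 called falls, NUP107, NUP133 and KPNA2 stay called on either scale, while the called rises KPNA4, IPO5, NUP58 and NUP188 lie further to the right.

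Promoter sequence was at hand for 30 of the 34 genes, in RefSeq's table for GRCh38.p14, and NUP43, RANBP1, KPNA4 and KPNB1 had no entry. The 250 bases before each gene's first listed start were searched on both strands for TTTGAA, which is the core of the cell cycle homology element. CCAAT, the box bound by NF-Y, was searched too, with 4 spellings of an E2F site (TTTGGCGC, TTTCCCGC, TTTGCCGC, TTTCGCGC). Some of these spellings can overlap. The first motif was in 5 of the 30 (16.7%), against 13.6% of 27305 genes, and CCAAT in 13 (43.3%), against 33.0%. An E2F spelling was in none of the 30, against 2.79% of all genes. Among the 9 called falls with an entry, 2 (KPNA2 and NUP153) held the first motif and 4 (NUP107, KPNA2, XPO1 and CSE1L) held CCAAT. Of the 18 genes with an entry that were not called, 3 held the first motif and 8 held CCAAT. The CCAAT share was thus 44.4% both in the falls and in the genes not called. Of the 3 called rises with an entry, 0 held the first motif and 1 held CCAAT. These shares describe letters in a window and draw nothing about any factor. Given here are the sequences of NUP107, NUP133 and KPNA2, which fell, and of NUP58 and IPO5, which rose, because these 5 and KPNA4 kept their call in all 18 alternative settings of the analysis. They are written 5′ to 3′ on the gene's strand, with the matches in capitals (TTCAAA and ATTGG are matches on the other strand).
NUP107, chr12:68686728-68686977, plus strand: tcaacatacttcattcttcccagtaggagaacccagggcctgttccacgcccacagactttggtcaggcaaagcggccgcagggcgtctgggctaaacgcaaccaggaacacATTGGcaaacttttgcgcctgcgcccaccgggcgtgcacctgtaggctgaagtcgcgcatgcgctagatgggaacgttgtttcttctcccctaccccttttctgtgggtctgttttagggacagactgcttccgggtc
NUP133, chr1:229508342-229508591, minus strand: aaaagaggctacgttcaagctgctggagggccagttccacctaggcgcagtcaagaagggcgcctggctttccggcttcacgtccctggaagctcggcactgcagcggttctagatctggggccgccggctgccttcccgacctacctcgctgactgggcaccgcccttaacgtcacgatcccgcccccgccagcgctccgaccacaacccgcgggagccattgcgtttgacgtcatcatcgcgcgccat
NUP58, chr13:25301375-25301624, plus strand: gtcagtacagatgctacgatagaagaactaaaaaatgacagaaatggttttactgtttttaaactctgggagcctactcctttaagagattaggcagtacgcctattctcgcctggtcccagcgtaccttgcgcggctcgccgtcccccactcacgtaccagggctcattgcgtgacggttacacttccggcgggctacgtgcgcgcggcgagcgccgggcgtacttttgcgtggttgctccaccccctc
KPNA2, chr17:68035485-68035734, plus strand: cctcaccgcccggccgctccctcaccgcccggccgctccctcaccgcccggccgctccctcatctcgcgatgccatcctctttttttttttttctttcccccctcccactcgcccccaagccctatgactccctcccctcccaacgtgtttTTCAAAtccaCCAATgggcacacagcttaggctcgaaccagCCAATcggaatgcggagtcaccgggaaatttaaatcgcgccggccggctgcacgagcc
IPO5, chr13:97953425-97953674, plus strand: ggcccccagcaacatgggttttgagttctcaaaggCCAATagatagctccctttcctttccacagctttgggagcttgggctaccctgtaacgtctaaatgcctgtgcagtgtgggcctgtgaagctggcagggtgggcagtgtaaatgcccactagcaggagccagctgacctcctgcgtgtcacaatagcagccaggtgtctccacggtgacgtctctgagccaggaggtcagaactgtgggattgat
In KPNA2 the first motif started 99 bases before the gene start and the CCAAT boxes 89 and 58 bases before it. In NUP107 and IPO5 the single CCAAT match started 138 and 215 bases before it. NUP133 and NUP58 held none of the motifs.

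Y complex genes, which encode the scaffold ring that seeds a new pore, had 4 of 5 members lower and 1 not passed, with a median log2 change of -0.49. With replicates in the order 1, 2 and 3 here and below, NUP107 had an intensity of 252, 302 and 246 in control cells against 140.5, 148 and 152 in RASv12 cells. All RASv12 values lay below all control values, and NUP107 fell by 0.80 on the log2 scale (SE 0.107, limma adjusted p = 0.0020). NUP133, a neighbour of NUP107 in the stem of the complex, had 148, 143 and 143 in control and 71.1, 76.4 and 64.8 in RASv12 cells. Its groups were well apart, and it fell by 0.85 (SE 0.103, limma adjusted p = 0.0013). NUP107 and NUP133 kept their calls in all 18 alternative settings, with log2 changes of -0.48 and -0.60 on the hybridization-control scale.

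NUP43, a propeller protein on a short arm of the Y, had 237, 213 and 185 in control and 155, 142 and 137 in RASv12 cells. The groups did not overlap, although control values ranged widely, and it fell by 0.49 (SE 0.118, limma adjusted p = 0.021). Leaving out control replicate 1 (adjusted p = 0.055) or 2 (0.062), or RASv12 replicate 2 (0.065) or 3 (0.060), ended this call. NUP85, another arm protein, had 187, 184 and 176.5 in control and 148, 134 and 128 in RASv12 cells. Each group was tight and lay apart from the other, and it fell by 0.37 (SE 0.095, limma adjusted p = 0.026). Its call ended in 9 of the 18 alternatives, among them the loss of control replicate 1 (adjusted p = 0.071), 2 (0.074) or 3 (0.062) and of RASv12 replicate 2 (0.076) or 3 (0.066). NUP160, also of the Y complex, was dim at 24.0 to 36.0 in control and 14.9 to 32.8 in RASv12 cells. For NUP160, 1 value of each group lay within the low bacterial controls (27.98 at most). Its groups overlapped and it did not pass (limma adjusted p = 0.68). The RASv12 mean, 26.3, lay within those controls and the control mean, 29.4, just above them, so no fold is given. On the hybridization-control scale NUP43 was at -0.19 and NUP85 at -0.08, neither of them called.

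Inner ring genes, which encode the scaffold that lines the channel, had 1 of 4 higher and 3 not passed. NUP188 intensity was 122, 131 and 115 in control and 161, 159.5 and 172 in RASv12 cells. All RASv12 values were above all control values, and it rose by 0.40 ± 0.091 (SE, limma adjusted p = 0.017). Leaving out control replicate 3 ended the call (log2 change 0.37, adjusted p = 0.062). NUP205, a large protein related to NUP188, had 149, 151 and 157 in control and 146, 108 and 109 in RASv12 cells. Its groups did not overlap, RASv12 replicate 1 lay close to control, and it did not pass at a log2 change of -0.30 (95% interval -0.60 to 0.00, limma adjusted p = 0.13). Without RASv12 replicate 1 it was called at -0.41 (adjusted p = 0.028). NUP93, the anchor of the ring, and NUP155, which contacts the membrane, had log2 changes of -0.11 (95% interval -0.54 to 0.31) and -0.07 (-0.38 to 0.25), and their groups overlapped. NUP93 was at 186 in RASv12 replicate 1 and at 107 and 125 in the other RASv12 replicates.

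Of 4 central channel genes, 1 rose and 1 fell. This is 25% each way, against 18.4% higher and 20.7% lower among genes above the low controls. NUP62 and NUP58 encode partners in the FG channel complex. NUP62 intensity was 172, 159 and 170.0 in control and 111, 86.6 and 46.8 in RASv12 cells. Every RASv12 value was below control, with replicate 3 lowest, and it fell by 0.95 (SE 0.272, limma adjusted p = 0.039). The NUP62 call ended in 7 of the 18 alternatives. Among them were leaving out control replicate 1 (adjusted p = 0.10), 2 (0.088) or 3 (0.11) or RASv12 replicate 2 (0.076). On the hybridization-control scale NUP62 was at -0.68 and not called (adjusted p = 0.059). The second NUP62 probe set was at -0.23 and not called. NUP58 had 32.1, 37.1 and 23.8 in control and 50.6, 63.1 and 56.3 in RASv12 cells. Control values lay near the low bacterial controls, 1 of them within, and RASv12 values lay above all of them. NUP58 rose by 0.69 ± 0.131 (SE, limma adjusted p = 0.0086), and this call held in all 18 alternatives.

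NUP98, a GLFG nucleoporin that also acts off the pore, had 68.8, 113 and 82.5 in control and 111, 102 and 108 in RASv12 cells. The groups overlapped through control replicate 2, and the log2 change of 0.32 (95% interval -0.07 to 0.71) did not pass (limma adjusted p = 0.21). It was called at 0.49 without control replicate 2 (adjusted p = 0.040) and at 0.55 on the hybridization-control scale. A second NUP98 probe set had 79.5, 66.1 and 62.0 in control and 105, 97.5 and 99.1 in RASv12 cells. That probe set rose by 0.52 ± 0.110 (SE, adjusted p = 0.016 over all probe sets), while the remaining one was at -0.28 and not called. The mRNA export partner of NUP98, RAE1, had 208 to 232 in control and 178 to 206 in RASv12 cells, at a log2 change of -0.14 (95% interval -0.39 to 0.11). The membrane nucleoporin NUP210 was at 19.7 to 30.4 in control and 15.7 to 29.4 in RASv12 cells, and both means lay under the highest low control, which leaves no fold to give.

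Genes of the cytoplasmic filaments had none of 3 called. NUP88 had 134, 125 and 123 in control and 91.9, 110.5 and 81.0 in RASv12 cells, which did not overlap. Its log2 change was -0.35 (95% interval -0.66 to -0.05, limma adjusted p = 0.085), and without RASv12 replicate 2 it was called at -0.46 (adjusted p = 0.046). NUP214, which holds NUP88 and helps export, had 82.7 to 109 in control and 56.1 to 97.8 in RASv12 cells and overlapped (log2 change -0.23). RANBP2, a SUMO ligase and the longest filament protein, had 90.6, 180 and 142 in control and 182, 179 and 171 in RASv12 cells. Control replicate 1 lay below every other array, the groups overlapped, and the log2 change was 0.40 (95% interval -0.12 to 0.92, limma adjusted p = 0.23). Without control replicate 1 it was at 0.15. RANBP2 has near-identical copies in the RGPD family, and its brightest probe set is of the kind that can cross-hybridize (suffix _x_at), so its signal is uncertain. The other probe sets were at -0.01 and 0.49, and neither was called.

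Nuclear basket genes had 2 of 3 lower and 1 not passed. NUP153, which anchors the basket, had 246, 240.2 and 225 in control and 162, 186 and 163 in RASv12 cells. The groups were apart, and it fell by 0.44 (SE 0.099, limma adjusted p = 0.017). The NUP153 call ended in 5 of the 18 alternatives, among them leaving out control replicate 1 (adjusted p = 0.050) or 2 (0.053). On the hybridization-control scale NUP153 was at -0.13 and not called (adjusted p = 0.42). NUP50, a mobile basket protein that helps release import cargo, had 163, 147 and 162 in control and 109, 103 and 92.1 in RASv12 cells on its brightest probe set. On that probe set it fell by 0.54 (SE 0.108, limma adjusted p = 0.010). A second NUP50 probe set went the other way, from 31.6, 55.5 and 50.6 in control to 84.6, 79.0 and 88.6 in RASv12 cells, a rise of 0.78 ± 0.167 (SE, adjusted p = 0.016 over all probe sets). The mean of its 4 probe sets was at 0.09 (adjusted p = 0.50), so the direction of NUP50 depends on the probe set. TPR, the coiled-coil backbone of the basket, had 206, 241 and 193 in control and 195, 196 and 210 in RASv12 cells and overlapped (log2 change -0.07, 95% interval -0.32 to 0.19).

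Ran cycle genes had none of 3 called. RAN was among the brighter probe sets, at 1689, 1551 and 1695 in control and 1696, 1819 and 1582 in RASv12 cells. These groups overlapped, with a log2 change of 0.03 (95% interval -0.19 to 0.25, limma adjusted p = 0.86). On the hybridization-control scale RAN was called higher at 0.38 (adjusted p = 0.025). RANBP1, which binds RAN with GTP and helps its hydrolysis, had 1131, 1133 and 1151 in control and 1132, 1014 and 857 in RASv12 cells. Replicate 1 of RASv12 matched control while replicates 2 and 3 lay lower, and the log2 change of -0.24 (95% interval -0.49 to 0.01) did not pass. RANGAP1, the activator of RAN's GTPase at the cytoplasmic face, had 218, 246 and 244 in control and 200.04, 186 and 177 in RASv12 cells. These values did not overlap, and the log2 change was -0.31 (95% interval -0.54 to -0.08) with a limma adjusted p of 0.056. RCC1, the exchange factor that charges RAN in the nucleus and a gene outside the 34, fell by 0.51 (SE 0.129, limma adjusted p = 0.025). That call ended in 7 of the 18 alternatives. Among them were leaving out control replicate 1 (adjusted p = 0.072) or 3 (0.084) or RASv12 replicate 2 (0.077) or 3 (0.069). The mean of all RCC1 probe sets was at -0.27 (adjusted p = 0.16). On the hybridization-control scale RCC1 was at -0.28 (adjusted p = 0.15).

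**Figure D2:**
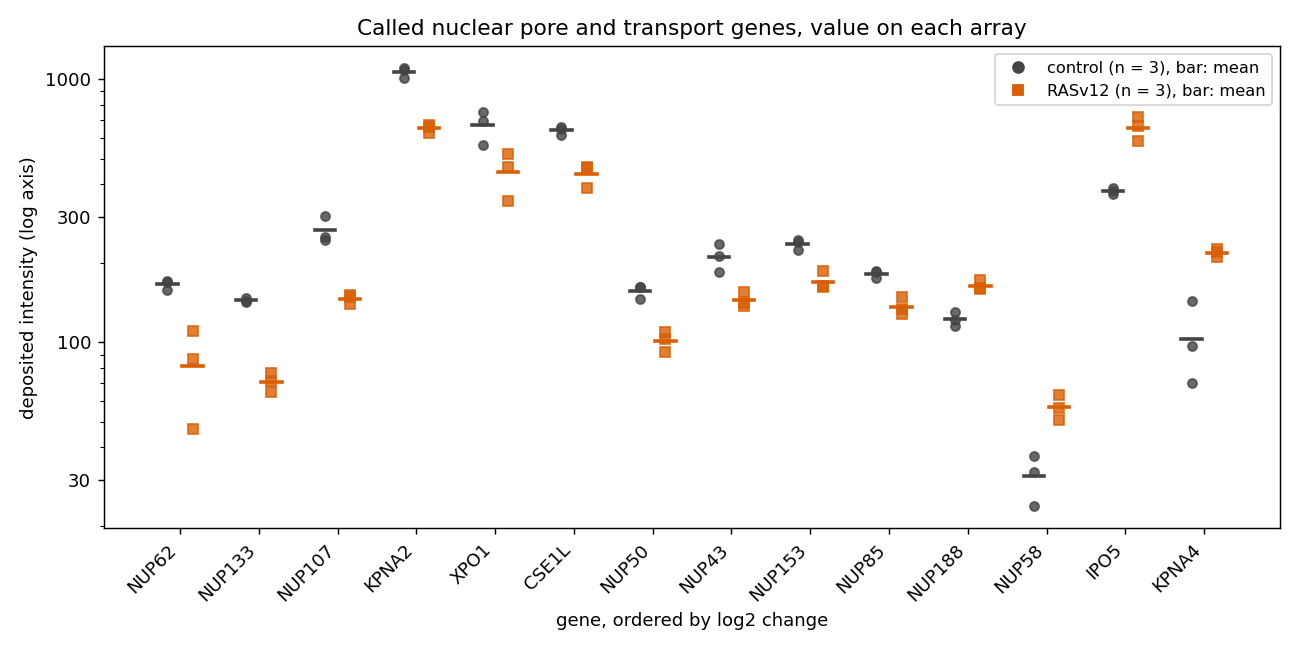
Deposited intensity on each array (log axis) for the 14 called genes, ordered by log2 change, with round points for control, squares for RASv12 (n = 3 each) and bars at the group means. The groups are apart for every gene drawn; NUP62 spreads most within the RASv12 group and KPNA4 most within control.

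Importin alpha genes, which encode adaptors for the classical localization signal, had 1 of 5 lower, 1 higher and 3 not passed. KPNA2 had 1084, 1106 and 1015 in control and 674, 657 and 625 in RASv12 cells. Both groups were tight and apart, and KPNA2 fell by 0.75 (SE 0.088, limma adjusted p = 0.0011). It kept its call in all 18 alternatives, at -0.37 on the hybridization-control scale. Its second probe set was at -0.45 and not called. KPNA4 had 70.3, 143 and 96.6 in control and 226, 220.2 and 211 in RASv12 cells. Control values spread over a wide range, yet all RASv12 values lay above them, and KPNA4 rose by 1.05 ± 0.221 (SE, limma adjusted p = 0.012). This too held in all 18 alternatives, but the second KPNA4 probe set was at 0.00 (95% interval -0.27 to 0.27), and the mean of both was 0.53.

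KPNA3, the closest relative of KPNA4, had 577, 555.5 and 504 in control and 477, 390.4 and 438 in RASv12 cells. The groups did not overlap, and the log2 change of -0.34 (95% interval -0.60 to -0.08) did not pass (limma adjusted p = 0.061). KPNA6 had 174, 193 and 209 in control and 165, 110.3 and 142 in RASv12 cells on its brightest probe set, at -0.43 (limma adjusted p = 0.073). Without RASv12 replicate 1 it was called at -0.54 (adjusted p = 0.036), while a dimmer KPNA6 probe set rose by 0.74 ± 0.137 (SE, adjusted p = 0.0090 over all probe sets). KPNA1 was at -0.15 on its brightest probe set with overlapping groups. Of its 6 probe sets, 2 were called lower and 4 were not called, of which 1 was at 0.48. Of the called ones, 1 was at -0.53, and the other had both means within the low bacterial controls, so its size is not given.

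Importin beta genes, whose products carry cargo through the channel, had 1 of 4 higher and 3 not passed. IPO5, a receptor for ribosomal proteins and histones, had 387, 367 and 377 in control and 717, 663 and 585 in RASv12 cells. The groups were far apart against their spread, and IPO5 rose by 0.74 ± 0.092 (SE, limma adjusted p = 0.0014). Its 4 probe sets all rose, by 0.57 to 0.90, and the call held in all 18 alternatives, at 1.10 on the hybridization-control scale. IPO7, a receptor with related cargoes that also carries ERK-pathway proteins, had 312, 444 and 320.0 in control and 527, 591 and 450.0 in RASv12 cells. Control replicate 2 came close to RASv12 replicate 3 without overlap, and the log2 change of 0.52 (95% interval 0.13 to 0.90) missed the threshold (limma adjusted p = 0.053). All 4 IPO7 probe sets lay between 0.31 and 0.52 with no overlap between groups, 1 of them called, and without control replicate 2 the brightest was called at 0.67 (adjusted p = 0.019). It was called in 9 of the 18 alternatives.

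KPNB1, the partner of importin alpha, had 1845, 1994 and 2040 in control and 2029, 1426 and 1365 in RASv12 cells on its brightest probe set. RASv12 replicate 1 lay within control, and the log2 change was -0.32 (95% interval -0.67 to 0.03, limma adjusted p = 0.16). Without that replicate it was called at -0.47 (adjusted p = 0.021). All 6 KPNB1 probe sets had negative changes, from -0.32 to -1.01, 2 of them called lower, and their mean was called at -0.57 (adjusted p = 0.0059). In the lowest of the 6, intensities were 474, 439 and 404.5 in control and 214, 203 and 215 in RASv12 cells. TNPO1, which imports hnRNP proteins, had 856 to 876 in control and 711 to 827 in RASv12 cells, at -0.18 (95% interval -0.40 to 0.05), and its 5 probe sets ran from -0.25 to 0.27 with none called.

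Both exportin genes of the list fell. CSE1L, the exportin that returns importin alpha to the cytoplasm, had 662, 645 and 617 in control and 466, 461 and 386 in RASv12 cells. The groups were apart, and CSE1L fell by 0.57 (SE 0.101, limma adjusted p = 0.0065). Its 3 probe sets above the low controls all fell, by 0.57, 0.65 and 1.02 on the log2 scale, and the remaining one was dim on every array. XPO1, the main exportin for proteins with a leucine-rich signal, had 751, 564 and 693 in control and 522, 466 and 345 in RASv12 cells. Control replicate 2 lay only just above RASv12 replicate 1, and XPO1 fell by 0.61 (SE 0.175, limma adjusted p = 0.041). That call ended without control replicate 1 (adjusted p = 0.12) or 3 (0.12), without RASv12 replicate 2 (0.084) or 3 (0.085), and on the values as deposited (0.053). On the hybridization-control scale CSE1L was at -0.21 and XPO1 at -0.26, and neither was called.

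The 34 genes had 89 probe sets, of which 16 were called lower and 12 higher over all probe sets, against 13.0% lower, 11.3% higher and 24.3% either way among 22215. A single probe set was at hand for 9 genes and several for 25. NUP50 was the 1 gene with probe sets called in both directions. Within the low bacterial controls on all 6 arrays lay 14 of the 89, among them a NUP188 probe set called higher, for which no fold is given. All 4 probe sets of IPO5 were called higher, and all 3 of CSE1L above the low controls were called lower. KPNA1, KPNA6, NUP50 and NUP98 each had a called probe set on one side of 0 and another above the low controls on the other side.

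**Figure D3:**
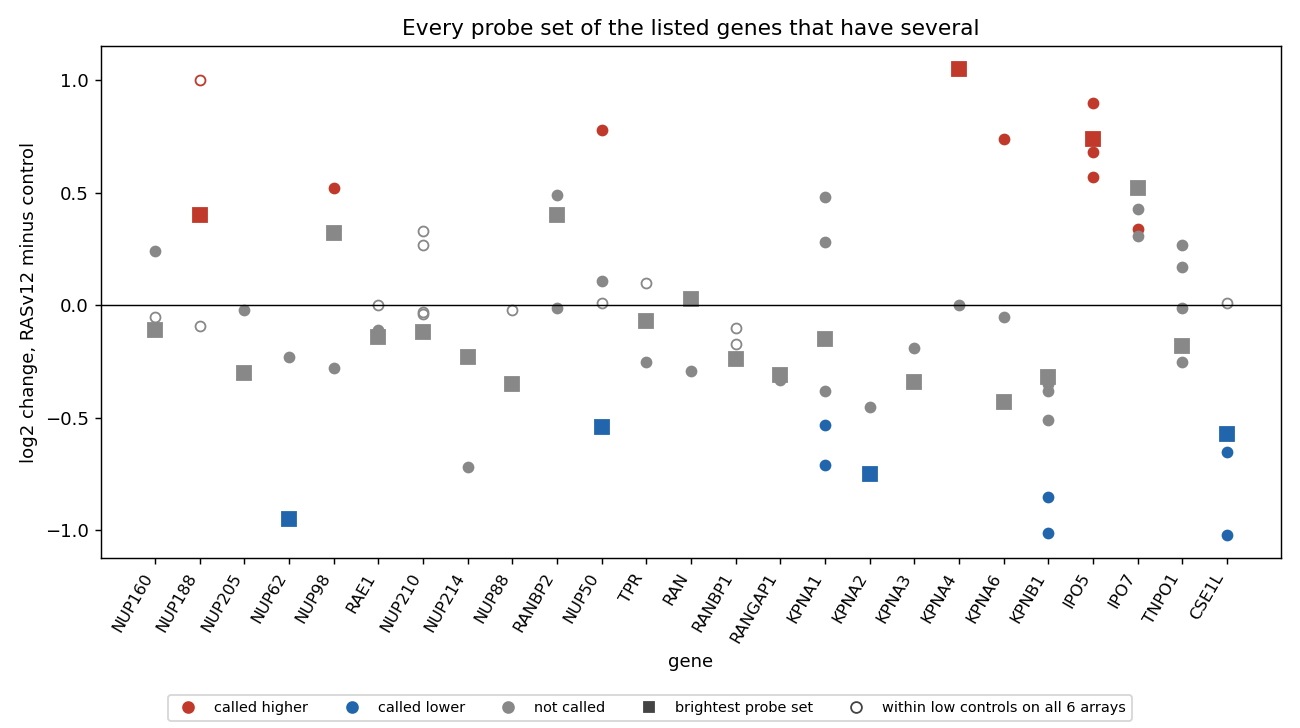
Log2 change of every probe set of the 25 genes that have several, with squares for the brightest, colours for the call over all probe sets and open symbols for probe sets within the low controls on all 6 arrays. All IPO5 probe sets lie above 0 and all KPNB1 probe sets below it, while NUP50 has 1 called on each side.

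Of 52 further transport genes listed beside the 34, 37 had a probe set with 1 gene name and the rest were not analysed here. Among the 37, 8 fell, 5 rose and 24 did not pass, with a median log2 change of -0.10. The share called, 35.1%, lay above the 29.1% of all genes and under the 39.1% of those above the low controls. The remaining Y complex genes had 1 of 4 lower, NUP37, which went from 187 ± 12.0 to 105 ± 18.8 in intensity (SD, n = 3) and fell by 0.73 (SE 0.13, limma adjusted p = 0.0065). SEH1L, also of the Y, and AHCTF1, which links it to chromatin, were at 0.44 and 0.48 and not called. SEC13, another gene of the Y, was at -0.43 with groups that did not overlap, and did not pass (limma adjusted p = 0.051). In 7 of the 18 alternatives SEC13 was called lower. IPO9, an importin for histones and actin, went from 286 ± 17.6 to 181 ± 19.8 and fell by 0.63 (SE 0.106, limma adjusted p = 0.0053). IPO4, an importin for histones with their chaperones, went from 72.3 ± 7.14 to 107 ± 2.60 and rose by 0.53 ± 0.098 (SE, limma adjusted p = 0.0072). NUP37 and IPO9 were not called on the hybridization-control scale (adjusted p = 0.056 and 0.091).

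Of 10 genes for mRNA export, 2 rose and 2 fell. These shares, 20% each way, lay near the 18.4% higher and 20.7% lower among genes above the low controls. THOC6, a subunit of the THO complex, had 56.7, 57.2 and 61.0 in control and 19.1, 21.9 and 20.4 in RASv12 cells. All RASv12 values lay within the low bacterial controls, so it was at least 2.08-fold lower (limma adjusted p = 4.7e-04), a bound on deposited intensity. NXT1, the cofactor of the mRNA export receptor, had 89.6, 97.8 and 108 in control and 179, 157 and 163 in RASv12 cells. Its groups were far apart, and it rose by 0.70 ± 0.106 (SE, limma adjusted p = 0.0032). THOC6 and NXT1 kept their calls in all 18 alternatives. PCID2, a protein of the export complex TREX-2, went from 252 ± 4.52 to 177 ± 8.37 and fell by 0.48 (SE 0.086, limma adjusted p = 0.0066), but was at -0.16 and not called on the hybridization-control scale. NUP42, at the cytoplasmic face, rose by 0.52 ± 0.113 (SE, limma adjusted p = 0.015), a call that ended without control replicate 2 (adjusted p = 0.054). The exportin XPO4 was at least 1.51-fold higher (limma adjusted p = 0.025), with its control mean within the low controls. Its call ended without control replicate 1 (adjusted p = 0.057) or 2 (0.053) and without RASv12 replicate 1 (0.055) or 2 (0.081).

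**Figure D4:**
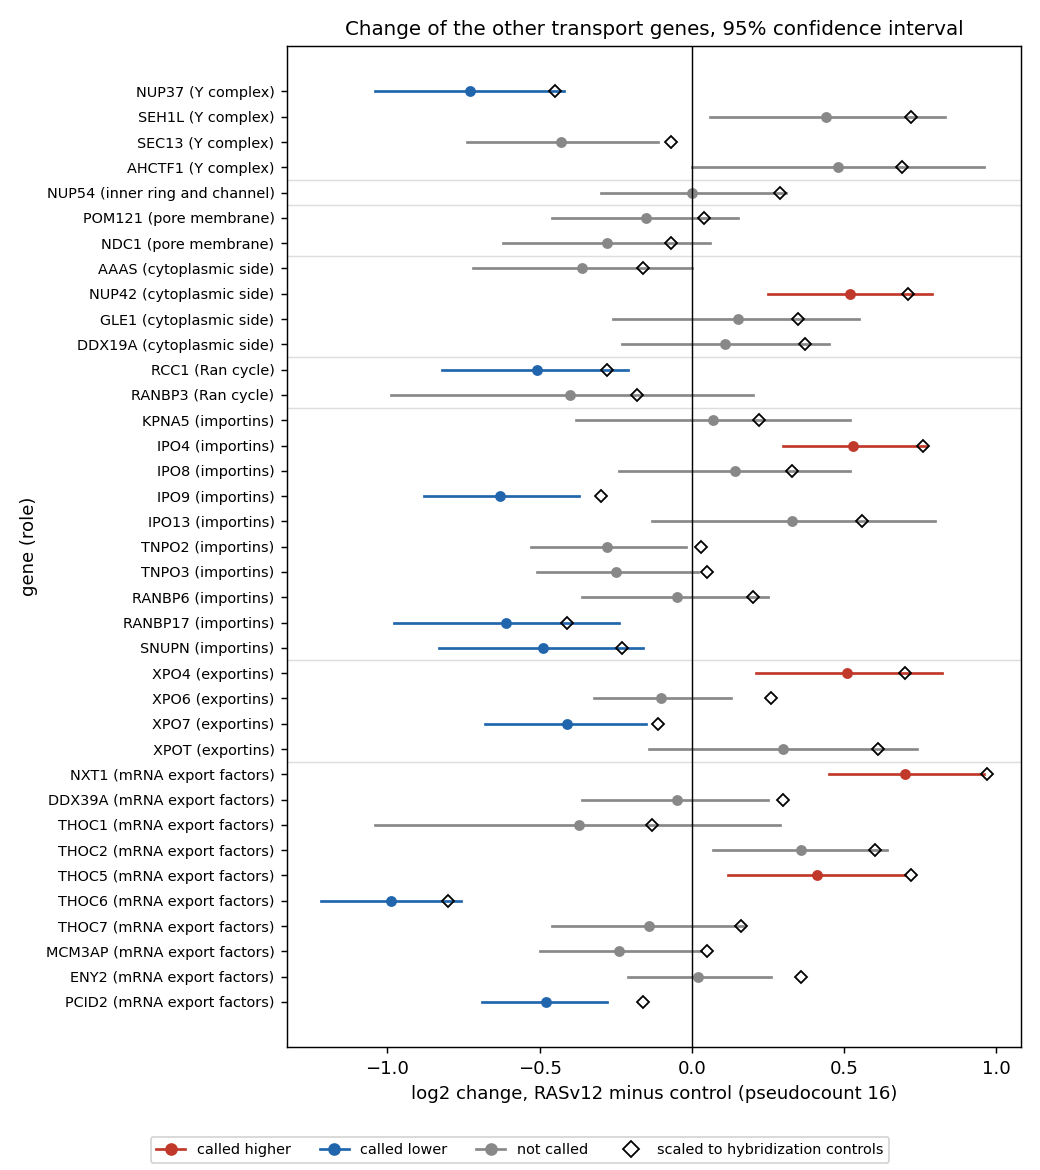
Log2 change of the 37 further transport genes, grouped by role, with bars for the 95% confidence interval (n = 3 per group) and open diamonds for the value with arrays scaled to the hybridization controls. Falls and rises are mixed within the importins, the exportins and the mRNA export factors, and THOC6 lies farthest to the left.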

How the data were processed

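RNA of 6 WI-38 samples, 3 control and 3 RASv12, was read on 1 array each. The authors deposited 1 table of linear intensity per probe set, made with MAS5 per the submitters' processing notes; neither its version nor its target brightness is given in the sources used here. Groups come from the sample titles. Of 22283 probe sets, 68 controls were left out. Gene names come from the platform annotation, updated through RefSeq for GRCh38.p14: 19065 probe sets had 1 symbol (12 unmatched), 1043 several and 2107 none, and only the first kind was named. Intensities were transformed as log2(value + 16), which understates changes of dim genes, and quantile normalized. The 22215 probe sets were fitted with limma 3.58.1 (lmFit, eBayes) in R 4.3.3, and p-values were adjusted by Benjamini-Hochberg over the brightest probe set of each of 11963 genes, or over all probe sets where said. The fit was tested on simulated data. Background was the highest intensity (27.98) of 27 bacterial control probe sets. A group whose mean lay there is given by a bound, each dim value raised to that level. The alternatives were other normalizations, pseudocounts of 1 and 64, filters of the dimmest 25% and 50%, other probe set rules, an intensity trend, a replicate block and leaving out each array. Moderating over genes only was added after the data were examined. The 34 genes are all described, and the 8 other transport genes with the largest moderated t among those called are named with values. RCC1, SEH1L, SEC13 and AHCTF1 were added after their values were seen. The members and lists were chosen with earlier results of these data known.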

Additional observations from a re-analysis of the deposited data

How the results depend on the processing

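Over 18 alternatives, the 34 genes gave 610 values, of which 543 kept their side of the threshold, 41 lost a call, 25 gained one and 1 reversed: NUP50, at 0.09 with the mean of all its probe sets. Among values that were called in neither fit, 23 changed sign, 12 of them with scaling to the hybridization controls. The 6 genes that kept their call in every alternative run were NUP107, NUP133, KPNA2, NUP58, KPNA4 and IPO5. Scaling to the hybridization controls gave 8 of the 34 higher and 3 lower, 10 of the further transport genes higher and 1 lower, and 2822 of all genes higher and 1050 lower, against 1647 and 1835. A pseudocount of 1 gave 5 of the 34 and 5 of the further genes lower. With the replicate block, 6 of the 34 were lower and 3 of the further genes higher. Deviations of same-numbered samples correlated at -0.23, -0.03 and -0.07, and those of differently numbered samples at -0.12 to 0.16. With 3 samples per group these values cannot show whether same-numbered samples were prepared together, and the labels do not say. Leaving out 1 array at a time gave 5 to 13 of the 34 lower (5 without control replicate 1, 6 without control replicate 2) and 3 to 6 higher. It gave 2 to 5 of the further genes higher (3 without control replicate 1, 2 without control replicate 2) and 5 to 7 lower (5 without control replicate 3, RASv12 replicate 2 or RASv12 replicate 3). Moderation over genes only called IPO7 (adjusted p = 0.049). Signal over background limits NUP160, NUP210 and NUP58.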
